A study of Mus musculus with 30 samples.

Results

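The 9 genes described here were grouped under selenium transport, the synthesis of the amino acid selenocysteine and its placement into proteins. They were chosen by name: Sepp1 (now called Selenop), Lrp8, Scly, Sephs1, Sephs2, Pstk, Sepsecs, Secisbp2 and Eefsec. All 9 were found among the 21412 genes measured by RNA sequencing in mouse hippocampus, and all 9 passed the filter on low values in every fit. In the study, BALB/c males, an inbred strain, were fed for 11 weeks, from 5 days after their arrival at an age of 2 to 3 weeks. The Ctr group got feed with no added methylmercury (MeHg), the LD group feed with 0.28 mg MeHg per kg and the HD group feed with 5 mg MeHg per kg. Cysteine went with the MeHg into these feeds and was also put into the control feed. The groups Se_Ctr, Se_LD and Se_HD repeat these names with selenium, which the title of the series gives as selenium-methionine in the diet. Their selenium and MeHg contents are not given in the sources used here. From each of the 6 groups 5 hippocampus samples were sequenced, each as 1 library and taken here as 1 mouse each, with 5768208 to 11510521 reads on genes (median 9351470.5).

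Selenium reaches the brain mostly as selenoprotein P, the product of Sepp1, which is secreted and holds many selenocysteines. The Sepp1 values below are RNA of hippocampus, so selenoprotein P that reaches the brain from elsewhere was not measured. Neurons take it up through the receptor encoded by Lrp8, also called ApoER2, and Scly breaks selenocysteine down to release its selenium for reuse. Sephs2 turns that selenium into selenophosphate. Pstk adds a phosphate to the serine on the selenocysteine transfer RNA, and Sepsecs exchanges the phosphate for selenium. Secisbp2 binds a stem-loop, the SECIS element, in the messenger RNA of a selenoprotein, and Eefsec is the elongation factor that brings the loaded transfer RNA to the ribosome. In this way a TGA codon, otherwise a stop, is read as selenocysteine. MeHg binds selenium tightly, which is why selenium handling is of interest in MeHg exposure.

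The codons that this machinery reads are shown for the members that are selenoproteins themselves, from the GENCODE vM1 annotation of build NCBIM37. Sepp1 has 10 in-frame TGA codons, all annotated as selenocysteine, in a coding sequence of 380 codons that ends in TAA. The first of them is codon 59 and the last is codon 377. The stretch around codon 59 is at chr15:3224818-3224874 on the plus strand, and the last 7 selenocysteine codons are at chr15:3229513-3229707, which runs up to the stop. Sephs2 has 1 such codon, codon 63, and the stretch shown around it is at chr7:134417215-134417277 on the minus strand. Its paralogue Sephs1 has none in its 392 codons. When the translations of both were aligned, 74.4% of 391 aligned residues were identical, and Sephs1 codon 29 lay opposite the selenocysteine of Sephs2. The Sephs1 stretch around that codon is at chr2:4805513-4805575 on the plus strand. Capitals mark the selenocysteine codons and, in Sephs1, the codon in that place.
Sepp1 codons 49 to 67: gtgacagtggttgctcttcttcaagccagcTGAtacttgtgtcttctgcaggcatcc
Sepp1 codons 316 to 380: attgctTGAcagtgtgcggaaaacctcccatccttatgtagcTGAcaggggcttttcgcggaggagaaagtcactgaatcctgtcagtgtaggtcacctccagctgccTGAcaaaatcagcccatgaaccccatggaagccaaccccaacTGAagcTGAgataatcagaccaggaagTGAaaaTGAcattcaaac
Sephs2 codons 53 to 73: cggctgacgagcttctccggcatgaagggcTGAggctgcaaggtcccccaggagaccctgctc
Sephs1 codons 19 to 39: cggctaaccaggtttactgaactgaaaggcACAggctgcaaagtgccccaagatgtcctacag
The longest run of bases shared by the coding sequence of Sephs2 and the transcript of Sephs1 was 14, against reads of 75 bases, and 0 stretches of 75 bases were shared.

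Values are normalized counts, that is, reads on a gene divided by the size factor of the library. Per kb of annotated exon, Sepp1 had by far the highest level of the 9 genes, with a mean of 701 ± 94.2 (SD, n = 30 mice). That was 8.40 times the level of Sephs2, the next gene, at 83.5 ± 14.2 per kb. Lrp8 followed at 74.8 ± 10.1, Sephs1 at 41.3 ± 3.21 and Pstk at 40.7 ± 8.18 per kb. Eefsec, Sepsecs, Secisbp2 and Scly were lowest, at 26.0, 25.7, 25.6 and 21.7 per kb. The lowest mouse lay above the highest mouse of the next gene only between Sepp1 and Sephs2 and between Lrp8 and Sephs1. The ranges of all other neighbours in this order overlapped. With the longest coding transcript as the length in place of all exons, Sepp1 remained highest but Lrp8 came before Sephs2, Pstk before Sephs1, and Scly, at 44.9 per kb, before Secisbp2, Eefsec and Sepsecs. The annotated model of Sephs2 is a single coding exon of 1359 bases without untranslated regions, so reads from the rest of its messenger RNA were not part of its count if the authors counted on this model.

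**Figure D1:**
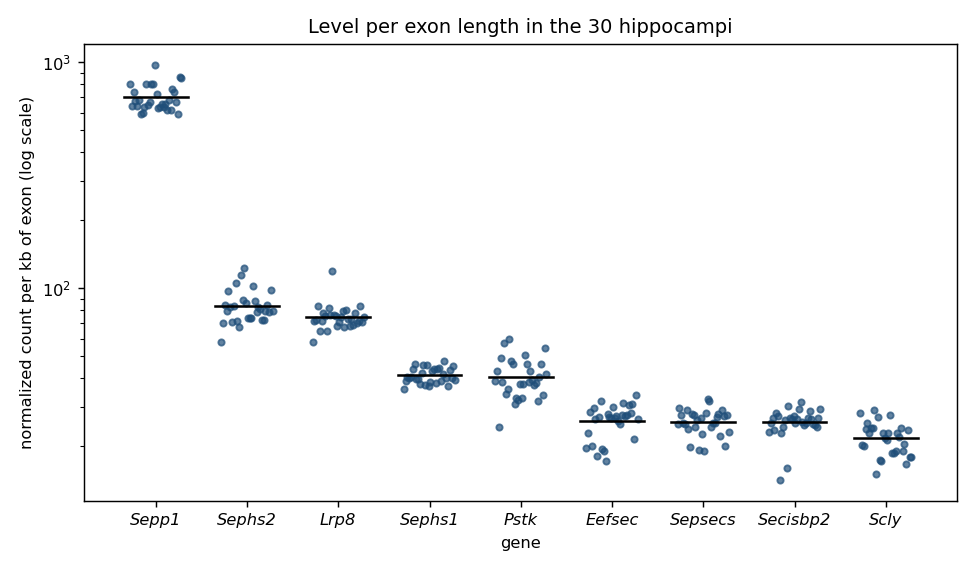
Normalized count per kb of annotated exon (y axis, log scale) for each of the 9 genes (x axis) in the 30 hippocampi. Points are mice and black lines are means. Sepp1 at a mean of 701 per kb stands above all the others, which lie between 21.7 and 83.5.

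Pooled over the 6 groups, the coefficient of variation between mice of a group ran from 8.07% for Sephs1 to 19.7% for Pstk. In single groups it ran from 5.05% (Sephs1 in Ctr) to 24.7% (Pstk in LD). Counting error alone accounts for 2.26% (Sepp1) to 12.0% (Eefsec), the gene with the fewest reads (37 to 103 per mouse). Differences between groups were tested with limma on log2(normalized count + 1), and a fold change below is on that scale. A gene is called at an unadjusted p under 0.05, the threshold used by the study, and p-values adjusted by Benjamini-Hochberg over all genes tested stand beside it. For 1 group of 5 mice against another, the p given beside the interval is that of an exact permutation test, two-sided, and whether a gene was called is taken from limma. Other p-values are from limma.

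Of the transport genes, Sepp1 (ENSMUSG00000064373, chr15:3218547-3230508, plus strand) had its highest group means in the groups with the high dose. Its normalized counts were 1817, 1832, 1911, 2109 and 2292 in Ctr, and 1851, 1893, 2274, 2295 and 2779 in HD. The LD mice had 1683, 1693, 1814, 1945 and 2274. With selenium the values were 1791, 1801, 1804, 1867 and 2060 in Se_Ctr, 1753, 1756, 1870, 1938 and 2164 in Se_LD, and 1688, 1909, 2099, 2419 and 2454 in Se_HD. The groups overlapped in each diet, since the lowest Se_HD mouse lay below every Se_Ctr mouse while 3 of 5 lay above all of them. The log2 fold change of HD against Ctr was 0.14 (95% interval -0.098 to 0.39, exact p = 0.238) and that of Se_HD against Se_Ctr 0.17 (-0.019 to 0.36, exact p = 0.190), so neither passed a test. Without HD replicate 5 the value of HD against Ctr was 0.060, and without HD replicate 1 it was 0.21. That of Se_HD against Se_Ctr ran from 0.11 (without Se_HD replicate 4) to 0.25 (without Se_HD replicate 3), with a lowest unadjusted p in limma of 0.00750.

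Pooled over both diets, Sepp1 was higher at the high dose, with a mean of 2166 in the 10 mice of HD and Se_HD and of 1928 in the 10 mice of Ctr and Se_Ctr. This is a log2 fold change of 0.16 (0.0031 to 0.31), with p = 0.0458 in limma (n = 10 mice on each side) and an adjusted p of 0.539. Sepp1 was the 1 member of 9 called in this comparison, in which 9.09% of the 21383 genes tested were called. The difference between the diets in this fold change was 0.024 (-0.28 to 0.33, adjusted p = 0.997), an interval that still holds changes of the size of the pooled one. The call depended on single mice, since it was lost when any 1 of 13 of the 30 mice was left out. Over all 30 the log2 fold change ran from 0.11 without HD replicate 5, the mouse at 2779, to 0.20 without Se_HD replicate 3, the mouse at 1688. The call was also lost in limma without the trend and in an ordinary per-gene model. At the low dose pooled over diets the fold change of Sepp1 was -0.032 (-0.19 to 0.12, adjusted p = 1.00).

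In bulk tissue, fewer cells of a type and less RNA per cell cannot be told apart, and the sums of glia and interneuron markers moved in HD. In Se_HD these sums overlapped those of Se_Ctr. The summed normalized counts of 10 microglia markers were 3529 to 8591 in HD and 2742 to 2985 in Ctr, with no overlap, and 2839 to 3398 in Se_HD and 2639 to 3161 in Se_Ctr. The sum of 6 astrocyte markers was 53301 to 87617 in HD and 43972 to 54506 in Ctr, and 45794 to 47792 in Se_HD against 43017 to 49776 in Se_Ctr. Slc1a2, which had the highest median of the 6, was 32704 to 37971 in HD and 30001 to 40221 in Ctr. Of the 6, only Gfap separated HD from Ctr. The sum of 6 interneuron markers was 4190 to 5294 in HD and 5566 to 6372 in Ctr, with no overlap, and 5418 to 6638 in Se_HD against 5146 to 6333 in Se_Ctr. Gfap, the filament protein of reactive astrocytes, was 4080 to 32820 in HD and 1430 to 1988 in Ctr, and 2264 to 2909 in Se_HD against 1596 to 2165 in Se_Ctr, with no overlap in either diet. Every marker of these lists was detected in every group. Choroid plexus, a neighbouring tissue, was present to a very uneven degree, its 8 markers summing to 276 to 37442 across the 30 libraries. Over the 30 mice the level of Sepp1 had a Pearson r of 0.36 (permutation p = 0.0484) and a Spearman rho of 0.51 (permutation p = 0.00464) with the mean log2 level of the astrocyte markers. With the microglia markers its Pearson r was 0.39 (permutation p = 0.0323) and its rho 0.33, and with the choroid plexus markers r was -0.24 (permutation p = 0.193) and rho -0.36. Among the 27 relations computed between the 9 genes and the astrocyte, microglia and choroid plexus markers, the adjusted p-values of the astrocyte relation were 0.213 and 0.125, and those of r with microglia and choroid plexus 0.213 and 0.475. Without the 2 mice farthest from the median of the marker level r with the astrocyte markers was 0.39, with the microglia markers 0.32 and with the choroid plexus markers -0.31. After subtracting the group means these were 0.053, 0.13 and -0.45. Adding the choroid plexus marker level as a covariate, an alternative chosen after seeing the data, gave a log2 fold change of Sepp1 at the high dose of 0.20 with an adjusted p of 0.371. The part of these other cells in the level of Sepp1 was not tested further.

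Lrp8 (ENSMUSG00000028613, chr4:107474866-107549445, plus strand), the uptake receptor, had normalized counts of 612, 680, 754, 765 and 879 in Ctr and of 719, 795, 800.0, 800.3 and 1250 in HD. A single HD mouse, replicate 2, thus stood far above the rest and the other 4 lay within the range of Ctr. HD against Ctr gave a log2 fold change of 0.22 (-0.048 to 0.49, exact p = 0.238), and without that mouse it was 0.086 (adjusted p = 0.939). The same mouse was the one with the highest Gfap. Lrp8 had a Pearson r of 0.53 with the astrocyte marker level (permutation p = 0.0186, adjusted p = 0.167, Spearman rho 0.16), which fell to 0.12 without the 2 mice farthest from the median, so that the relation rests on those mice. After subtracting the group means it was 0.47. In the other groups no mouse stood apart. Its means were 783 ± 69.5 in LD, 784 ± 57.3 in Se_Ctr, 760 ± 40.2 in Se_LD and 781 ± 58.9 in Se_HD (SD, n = 5 each). The 95% interval of the log2 fold change of Se_HD against Se_Ctr was -0.15 to 0.14.

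Scly (ENSMUSG00000026307, chr1:93194915-93217652, plus strand), the selenocysteine lyase, had its lowest mean in Se_HD, 88.2 ± 12.5, and its highest in Ctr, 107 ± 15.6 (SD, n = 5 each). The 5 Se_HD mice had 76.3, 81.9, 82.0, 93.0 and 108 normalized counts and the 5 Ctr mice 91.65, 91.88, 108, 115 and 128, so the groups overlapped. On the log2 scale the difference was -0.16 (-0.38 to 0.061, adjusted p = 0.703) for the high dose pooled over diets and -0.10 (-0.28 to 0.078, adjusted p = 0.859) for selenium pooled over doses. Neither passed the test. Scly shares 159 exonic bases with the antisense gene Gm17090, and since the strand setting of the counting is not given in the sources used here, reads of both may not be separated.

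The paralogues Sephs1 and Sephs2 differed in how much they varied. Sephs1 (ENSMUSG00000026662, chr2:4802610-4831603, plus strand) was the steadiest gene of all 9, with group means from 232 ± 11.7 in Ctr to 252.3 ± 20.5 in Se_LD (SD, n = 5 each). Its lowest p in limma over all comparisons was 0.332. Its 95% interval for the high dose pooled over diets ran from -6.13% to 11.5% of the control level, and for selenium pooled over doses from -4.62% to 9.73%. Sephs2 (ENSMUSG00000049091, chr7:134416075-134417433, minus strand), the selenoprotein of the pair, had 78.5, 95.3, 108, 114 and 133 normalized counts in Ctr and 91.5, 117, 121, 155 and 168 in HD. Its HD mean, 131 ± 30.8, was its highest and 2 HD mice lay above all Ctr mice, but the groups overlapped. Against Ctr, HD had a log2 fold change of 0.29 (-0.076 to 0.66, exact p = 0.183, adjusted p in limma 0.721). With 1 mouse left out in turn, this value ran from 0.19 (without Ctr replicate 1) to 0.41 (without HD replicate 1), with a lowest unadjusted p in limma of 0.0267. In the selenium diet the corresponding value was 0.030 (-0.20 to 0.26, exact p = 0.754), with means of 114 ± 11.2 in Se_HD and 112 ± 17.2 in Se_Ctr. The difference between the diets was -0.26 (-0.68 to 0.16, adjusted p = 0.997) and did not pass the test. This difference was -0.38 without HD replicate 1 and -0.16 without Ctr replicate 1. Over the 30 mice Sephs2 had a Pearson r of 0.44 with the mean log2 level of the microglia markers (permutation p = 0.0178, adjusted p = 0.167, Spearman rho 0.31), 0.35 without the 2 mice farthest from the median and 0.23 after subtracting the group means.

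The genes that act on the transfer RNA were not called in any comparison. Pstk (ENSMUSG00000063179, chr7:138514655-138531353, plus strand), the kinase, varied most between mice. Its highest group mean was 102 ± 25.3 in LD, from mice at 74.7, 78.5, 105, 124 and 130, and its lowest 78.3 ± 13.9 in HD, from mice at 66.9, 69.9, 71.5, 82.5 and 101 (SD, n = 5 each). Its log2 fold change was 0.27 (-0.14 to 0.69, exact p = 0.294) in LD against Ctr and -0.11 (-0.40 to 0.18, exact p = 0.405) in Se_LD against Se_Ctr. The difference between these, -0.38 (-0.89 to 0.12, adjusted p = 0.998), did not pass the test. Single mice moved these values, to 0.12 and -0.23 for LD against Ctr and for the difference without Ctr replicate 3, and to -0.032 for Se_LD against Se_Ctr without Se_Ctr replicate 3. The other way, LD against Ctr and the difference reached 0.38 and -0.49 without LD replicate 2. Se_LD against Se_Ctr reached -0.19 without Se_Ctr replicate 1. Sepsecs (ENSMUSG00000029173, chr5:53031326-53060968, minus strand), the synthase that completes selenocysteine on its transfer RNA, ranged in group mean from 128 ± 16.2 in HD to 145 ± 29.7 in Se_Ctr. The HD mice had 103, 122, 130, 140 and 143 normalized counts and the Ctr mice 134.0, 134.3, 136, 147 and 158, for a log2 fold change of -0.16 (-0.43 to 0.12, exact p = 0.151), or -0.085 without HD replicate 3. Over the 30 mice Pstk and Sepsecs had the highest Pearson r of the 36 pairs of members, 0.47, given as a description of libraries that share their normalization.

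Of the genes that insert selenocysteine at the ribosome, Secisbp2 (ENSMUSG00000035139, chr13:51747066-51779413, plus strand) was lowest in 1 mouse each of LD (65.7) and HD (74.0), while all other mice of these groups lay between 106 and 140. Its means were 118 ± 9.67 in Ctr, 106 ± 23.8 in LD and 117 ± 25.1 in HD, and 128 ± 11.9, 122 ± 6.70 and 121 ± 9.51 in Se_Ctr, Se_LD and Se_HD (SD, n = 5 each). Selenium pooled over doses gave a log2 fold change of 0.14 (-0.030 to 0.31, adjusted p = 0.794) and was not called. Without LD replicate 2, the mouse at 65.7, it was 0.087, and LD against Ctr went from -0.18 to -0.017.

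Eefsec (ENSMUSG00000033216, chr6:88207328-88396533, minus strand), the elongation factor, was the 1 member called for selenium, at the unadjusted threshold only. Without selenium the mice had 54.3, 55.2, 63.0, 78.4 and 81.8 normalized counts in Ctr, 50.2, 53.5, 73.2, 74.1 and 88.0 in LD, and 47.3, 52.5, 73.3, 74.7 and 76.8 in HD. With selenium they had 69.5, 71.7, 73.5, 75.0 and 82.6 in Se_Ctr, 75.1, 75.8, 76.1, 84.2 and 86.2 in Se_LD, and 59.5, 73.0, 77.8, 85.3 and 93.3 in Se_HD. The groups without selenium each held 2 or 3 mice between 47.3 and 63.0, and of the selenium mice only 1, in Se_HD, was in that range. The upper mice of both diets overlapped. Median reads on genes were 7119788 in Ctr, 8185465 in LD and 10159514 in HD, against 9873274, 9600570 and 9406503 in Se_Ctr, Se_LD and Se_HD. Of the mice without selenium in that low range, all but HD replicate 2 (10131999 reads) had at most 8079666 reads. Ctr replicate 5 and Se_LD replicate 3, with 6567027 and 6559334 reads, were at 81.8 and 75.1. The part of depth was not tested. Pooled over doses, the mean was 77.2 in the 15 mice with selenium and 66.4 in the 15 without. On the log2 scale this was 0.23 (0.043 to 0.43), or 17.6% (3.00% to 34.3%), with p = 0.0181 in limma (n = 15 mice on each side) and an adjusted p of 0.723. That is 1 member of 9 in a comparison in which 6.62% of 21383 genes were called, a share that does not set the members apart, and 0 genes had an adjusted p under 0.05 in limma (0 in edgeR and 4 in DESeq2).

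By dose, the log2 fold change of Eefsec with selenium was 0.18 (-0.15 to 0.51, exact p = 0.198) for Se_Ctr against Ctr, 0.25 (-0.076 to 0.59, exact p = 0.159) for Se_LD against LD and 0.27 (-0.063 to 0.60, exact p = 0.183) for Se_HD against HD. The fold changes were alike in direction and none passed the test alone. Single mice moved each of them, in this order to 0.11 (without Ctr replicate 1), 0.16 (without LD replicate 2) and 0.16 (without HD replicate 2). The other way they reached 0.26 (without Ctr replicate 5), 0.36 (without LD replicate 4) and 0.36 (without Se_HD replicate 3). The pooled call held with each of the 30 mice left out in turn (0.20 to 0.27, p from 0.00692 to 0.0372). With 37 to 103 reads per mouse the counting error of Eefsec, 12.0%, was a large part of its variation within groups, 16.3%. For the high dose pooled over diets, the log2 fold change of Eefsec was 0.0033 (-0.23 to 0.24, adjusted p = 0.998). The Pearson r of Eefsec with the astrocyte marker level over the 30 mice was -0.44 (permutation p = 0.0147, adjusted p = 0.167), with a Spearman rho of -0.29, -0.31 without the 2 mice farthest from the median and -0.48 after subtracting the group means.

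**Figure D2:**
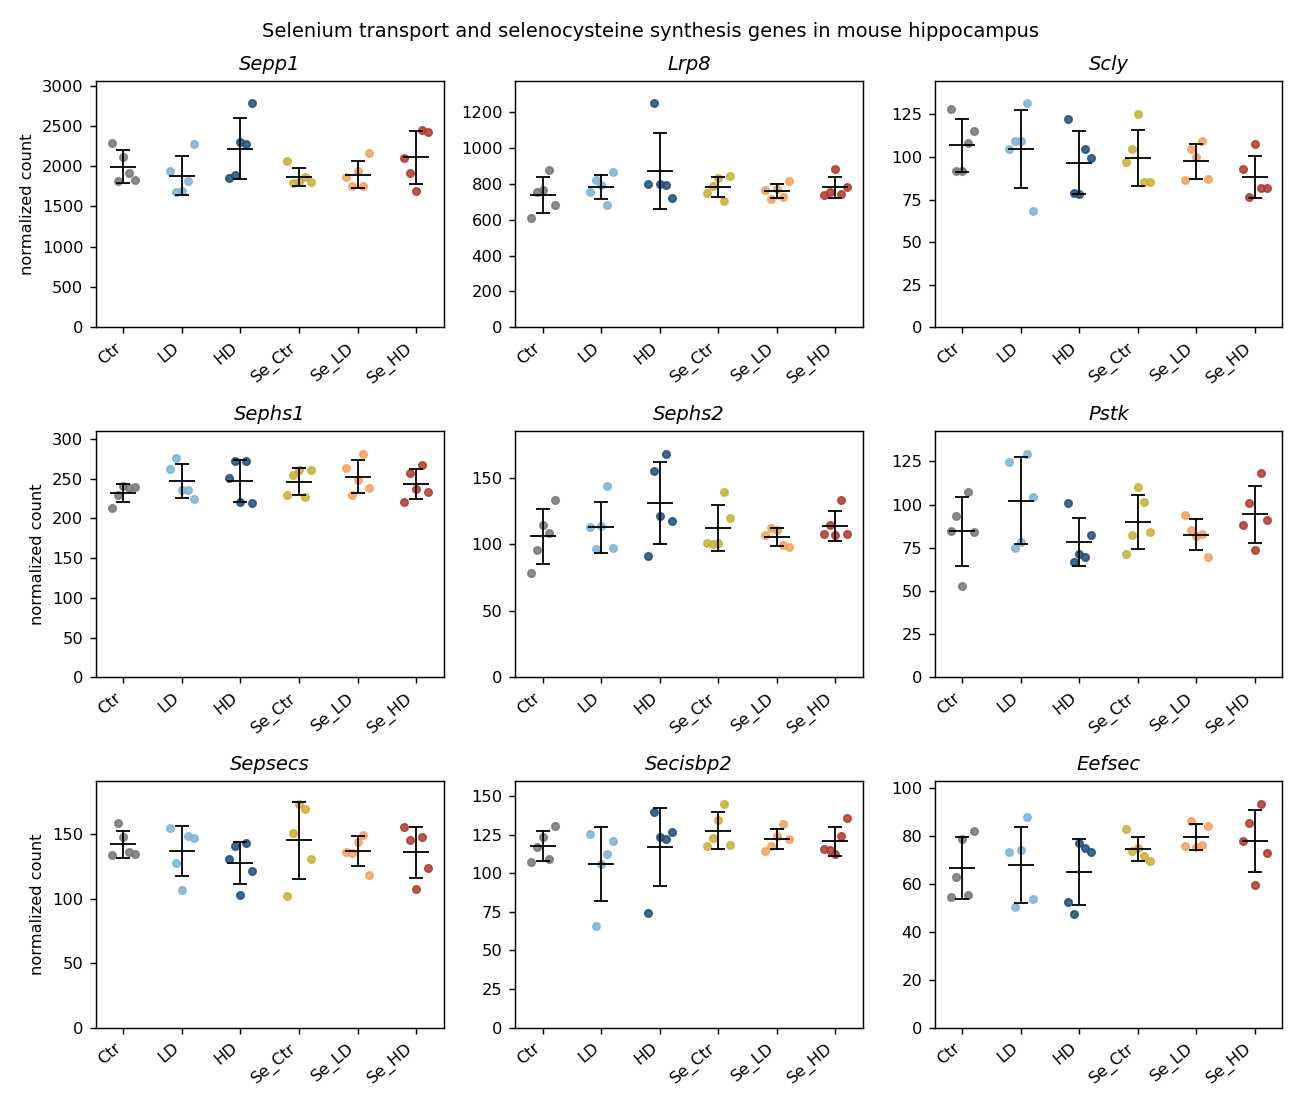
Normalized counts (y axes, from 0) of the 9 genes in each of the 6 groups (x axes). Points are mice (n = 5 per group) and black bars are the mean ± SD. The groups overlap for every gene. The HD mouse at 1250 for Lrp8 and the low mice between 47.3 and 63.0 for Eefsec in Ctr, LD and HD can be seen.

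Counted over the comparisons, 0 of the 9 genes were called in LD against Ctr (3.01% of all genes tested), in HD against Ctr (8.34%), in Se_LD against Se_Ctr (3.31%) and in Se_HD against Se_Ctr (4.19%). The count was also 0 in Se_Ctr against Ctr (4.00%), Se_LD against LD (2.86%), Se_HD against HD (8.38%) and the low dose pooled over diets (2.69%). It was 0 for the difference between the diets at the low dose (3.75%) and at the high dose (4.77%) and in the F test over the 6 groups (6.91%). With 9 genes, such shares leave an expectation under 1 gene, so these counts do not set the members apart from other genes. edgeR and DESeq2 on the recovered reads called the same number of members as limma in each of these comparisons, and none of the 9 had an adjusted p under 0.05 in any of them. Over all genes the adjusted threshold was passed by 0.130% in HD against Ctr, 0.327% in Se_HD against HD, 0.210% in the high dose pooled over diets and 0.444% in the F test, and by 0.00% in the other comparisons. In HD against Ctr the median log2 fold change of the members was -0.033, against 0.0067 over all genes. In exact permutation tests of 5 mice against 5, two-sided, 0 of 63 tests had a p under 0.05. The lowest was 0.135 (Pstk, Se_HD against HD; adjusted p = 0.882), where the smallest p that 5 against 5 can give is 0.00794. In 0 of the 63 did the groups separate. Of all genes they separated for 0.399% in LD against Ctr, 1.76% in HD against Ctr, 0.511% in Se_LD against Se_Ctr, 0.815% in Se_HD against Se_Ctr, 0.761% in Se_Ctr against Ctr, 0.361% in Se_LD against LD and 1.60% in Se_HD against HD.

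**Figure D3:**
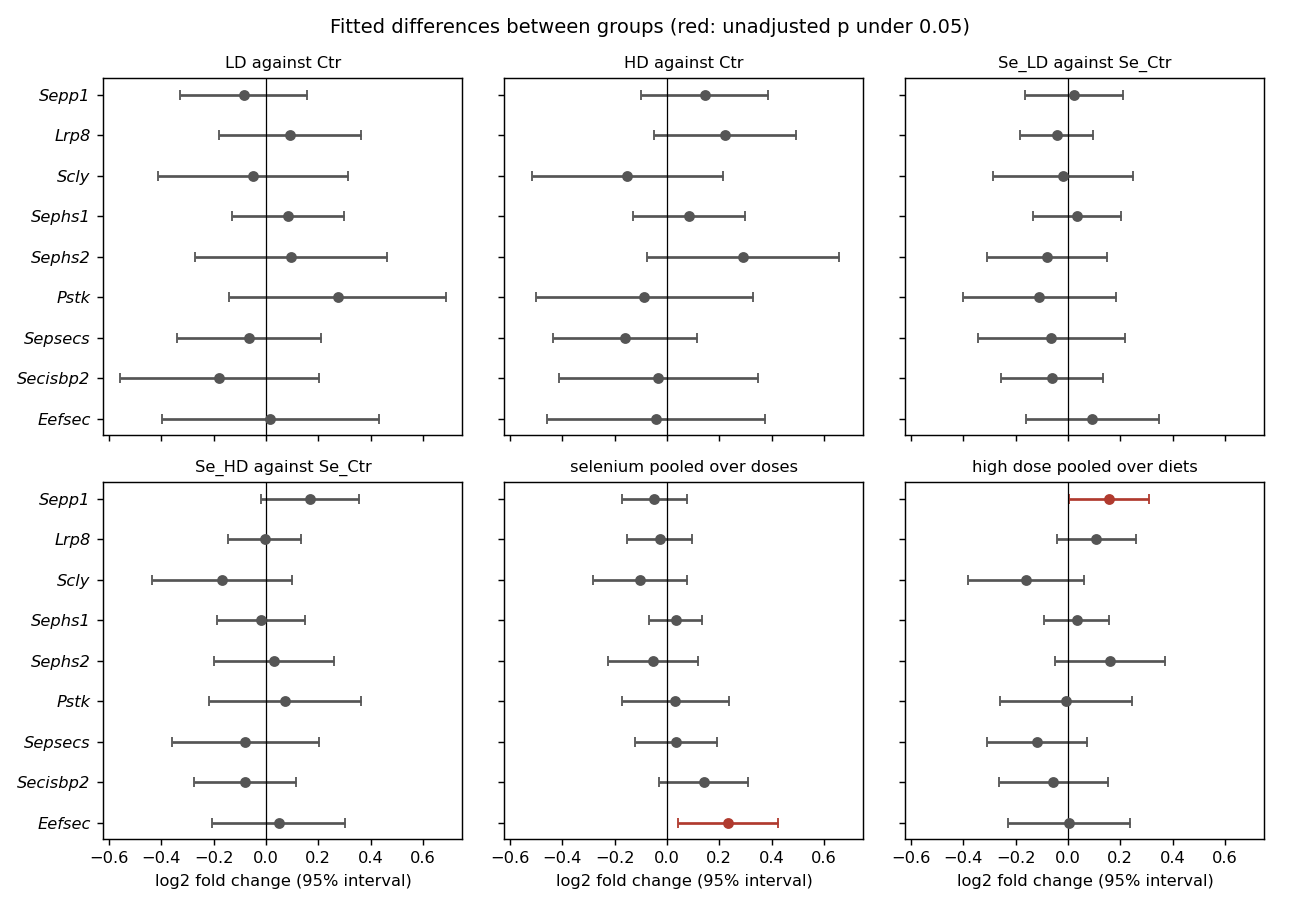
Log2 fold changes of the 9 genes (points) with 95% intervals (bars) from limma in 6 comparisons, on 1 shared x axis. Sepp1 at the high dose pooled over diets and Eefsec with selenium pooled over doses, in red, are the only ones with an unadjusted p under 0.05.

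Other genes of the same pathway were counted from lists. Of 10 further factors of selenocysteine insertion and selenium uptake, 0 were called in HD against Ctr (8.34% of all genes) and 1 for selenium pooled over doses (6.62% of all genes). It was Ncl, nucleolin, an RNA-binding protein reported to bind selenoprotein messages, with means of 3916 with and 4601 without selenium, a log2 fold change of -0.21 (-0.37 to -0.044) and an adjusted p of 0.691. Of 6 enzymes that pass selenium from selenomethionine towards selenocysteine, Mat2b, a subunit of methionine adenosyltransferase, was higher with selenium pooled over doses by 0.11 on the log2 scale (721 against 673, adjusted p = 0.752), a call lost when any 1 of 18 of the 30 mice was left out (0.081 without LD replicate 2), in DESeq2, with quantile normalization and in limma without the trend. Its mean was higher with selenium in Se_HD (727 against 587 in HD) and Se_Ctr (728 against 674 in Ctr) but lower in Se_LD (709 against 759 in LD). Mat1a, the liver form of the same enzyme, was lower in HD against Ctr (adjusted p = 0.447) and at the high dose pooled over diets (adjusted p = 0.182), and it was as low in LD, at a mean of 0.397 against 0.327 in HD and 2.65 in Ctr. Without Ctr replicate 1 it was not called in HD against Ctr (-1.05). It was also called lower in LD against Ctr (adjusted p = 0.999) and at the low dose pooled over diets (adjusted p = 1.00), but with a mean of 1.31 normalized counts over the 30 mice it was hardly expressed.

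The further selenoproteins hold the pathway gene that passed the adjusted threshold. Of 22 listed, 20 were matched to a gene in the data, and in HD against Ctr 1 was higher and 2 were lower at an unadjusted p under 0.05, where 8.34% of all genes were called. Sepw1 (ENSMUSG00000041571) is a small redox selenoprotein abundant in brain and muscle, and its selenocysteine is codon 13. Around that codon, at chr7:16505798-16505821 on the minus strand, its coding sequence reads as follows, with the selenocysteine codon in capitals.
Sepw1 codons 11 to 18: ggagctTGAggctataagcccaag
Sepw1 had a mean of 3257 ± 811 in HD (2386 to 4564), against 5087 ± 740.4 in Ctr (3858 to 5844) and 5872 ± 1339 in LD (SD, n = 5 each). With selenium the mean was 5165 ± 148 in Se_HD (5054 to 5423), 5973 ± 569 in Se_Ctr and 5599 ± 403 in Se_LD. HD had the lowest mean, and no HD mouse reached the lowest Se_HD mouse. Sepw1 was lower in Se_HD against Se_Ctr too, by a log2 fold change of -0.21 (-0.35 to -0.057), called at the unadjusted threshold with an adjusted p of 1.00, but not called with all 30 libraries in the fit. In HD against Ctr its log2 fold change was -0.66 (-1.01 to -0.31), with an adjusted p of 0.139. At the high dose pooled over diets it was -0.43 (-0.63 to -0.24, adjusted p = 0.0398), and in Se_HD against HD it was 0.70 (0.42 to 0.97, adjusted p = 0.0147). The pooled call at the adjusted threshold was lost when any 1 of 14 of the 30 mice was left out (adjusted p from 0.00332 to 0.0885 over all 30), while the log2 fold change stayed between -0.50 and -0.38. It was also lost with a pseudocount of 10 (adjusted p = 0.0520), a factor for runs of 6 neighbouring library numbers (0.0657), the choroid plexus covariate (0.0758), no trend (0.101) or an ordinary model (0.110). In Se_HD against HD it was lost without HD replicate 2 (adjusted p = 0.0916) or HD replicate 5 (adjusted p = 0.0575), with an ordinary model (0.0548) and with the libraries of only these groups in the fit (0.171). The F test over the 6 groups gave an adjusted p of 0.00121. The difference between the diets in the high dose effect was 0.46 (0.070 to 0.85), called at the unadjusted threshold but with an adjusted p of 0.997, and without HD replicate 2 it was 0.35 and not called. The sum of the interneuron markers was lower in HD too, and the part of interneurons and glia in the level of Sepw1 was not tested.

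Dio3, the deiodinase that inactivates thyroid hormone, was higher in HD, with a mean of 108 ± 68.2 (38.4 to 205) against 30.2 ± 29.4 (12.3 to 81.7) in Ctr (log2 fold change 1.94, adjusted p = 0.175). 2700094K13Rik, or Selenoh, was lower in HD, with 34.0 against 56.8 (-0.78, adjusted p = 0.380). In Se_HD it had 48.4 against 52.2 in Se_Ctr (-0.057, -0.50 to 0.39), and its call at the high dose pooled over diets was lost without HD replicate 1 (-0.34). At the high dose pooled over diets 2 of the 20 selenoproteins were called higher and 2 lower, where 9.09% of all genes were called. One of the higher was Gpx4, the glutathione peroxidase that reduces lipid peroxides, at 1195 against 1052 (0.18, adjusted p = 0.543), a call lost when any 1 of 18 of the 30 mice was left out (0.14 without Se_Ctr replicate 4) and in edgeR and DESeq2. For selenium pooled over doses, in which 6.62% of all genes were called, 2 of 20 selenoproteins were called and both were higher, Sepw1 by 0.30 (adjusted p = 0.563), which rests mainly on the high dose since its mean in Se_LD was below that in LD, and Txnrd1, cytosolic thioredoxin reductase, by 0.13 (adjusted p = 0.752). The Txnrd1 call was lost when any 1 of 8 of the 30 mice was left out (log2 fold change 0.10 without HD replicate 1) and in DESeq2. The median log2 fold change of the 20 was 0.0039 for the high dose pooled over diets and 0.022 for selenium pooled over doses, against 0.0011 and -0.0032 over all genes. Comparisons that share control mice, such as HD against Ctr and the pooled high dose, are not independent of each other.

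**Figure D4:**
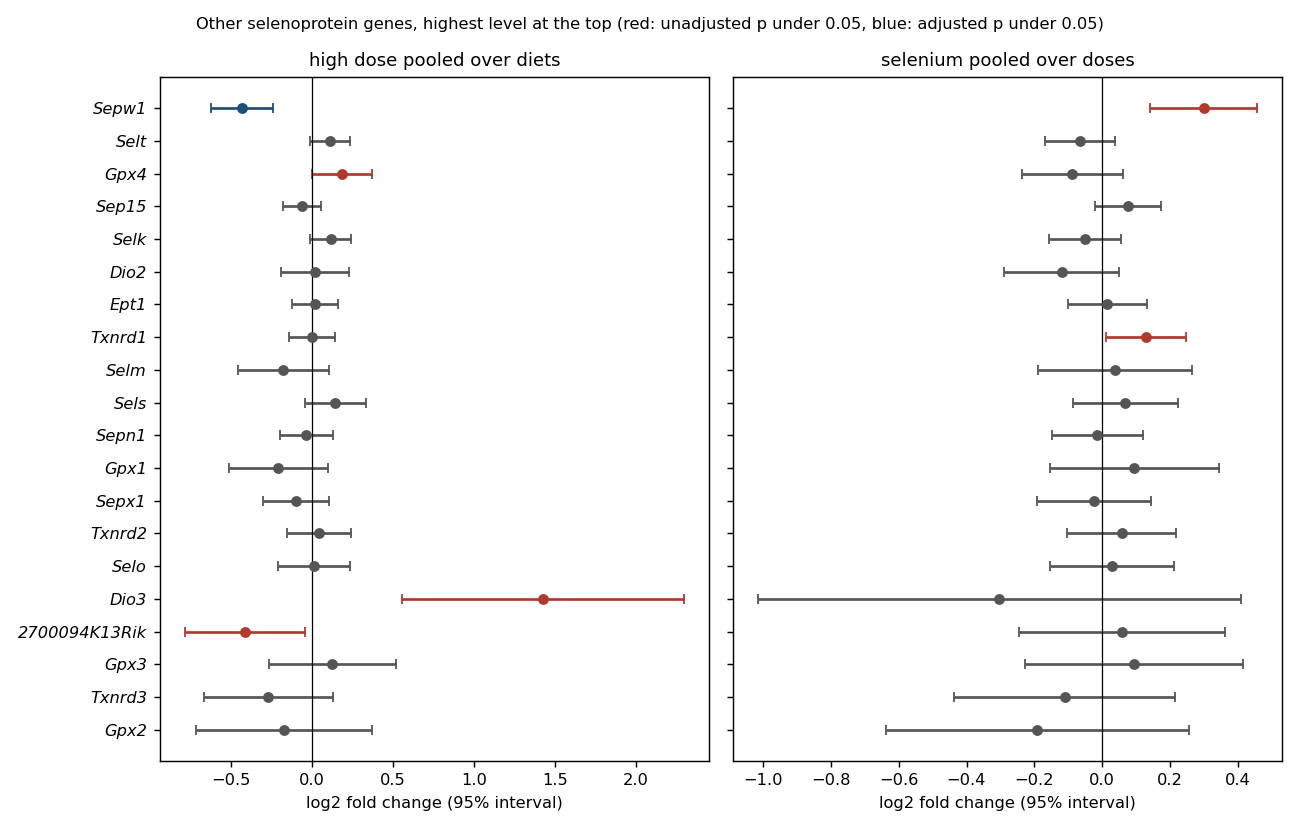
Log2 fold changes (points) with 95% intervals (bars) of the 20 further selenoprotein genes, ordered by mean normalized count with the highest at the top, for the high dose pooled over diets (left) and selenium pooled over doses (right). The x axes of the panels differ. Sepw1, in blue, has an adjusted p of 0.0398 at the high dose, and genes in red have an unadjusted p under 0.05.

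For the members other than Secisbp2, the genes with the most similar levels over the 30 mice were found among 11097 genes averaging 50 or more normalized counts. These correlations describe libraries that share normalization and tissue makeup. Sepp1 was most like Glud1 (Pearson r = 0.77), which encodes glutamate dehydrogenase, Srsf2 (0.76) and Gjb6 (0.75), the astrocyte gap junction gene connexin 30. Eefsec was most like Grk6 (0.78), Got2 (0.75) and Sv2a (0.75), the last a synaptic vesicle protein. For Lrp8 the closest were Fmnl2 (0.82), Lpin2 (0.81) and Slc7a1 (0.79), but the Spearman rho of these was 0.49, 0.57 and 0.42. The others of these members had Rpl36 (0.74) for Scly, Xrcc6 (0.66) for Sephs1, Penk (0.72) for Sephs2, Dffb (0.67) for Pstk and Zfp280c (0.75) for Sepsecs at the head of their lists. Among the members themselves, the lowest r of the 36 pairs was -0.51, between Lrp8 and Eefsec.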

How the data were processed

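The data are normalized gene counts of 30 hippocampus libraries. The authors trimmed 75-base single-end reads of a stranded mRNA kit with Trim Galore 0.4.2, aligned them with HISAT2 2.0.4 to NCBIM37, counted reads per Ensembl gene with featureCounts, removed genes with few reads and divided the counts by DESeq2 size factors (version 1.18.1). The deposited normalized counts are therefore a signal in reads divided by a size factor, not raw counts. Dividing by each library's value of 1 read, estimated from its smallest value above 0 and refined on its low values, gave whole reads for 100% of values (within 0.01 read), and these served the count tests only. Gene models and names came from GENCODE vM1, of the same build (21326 of 21412 identifiers had a name).

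Tests used limma 3.58.1 with a trend on log2(normalized count + 1), after removing genes with a sum under 10 normalized counts. As in the study's methods, the 3 groups of a diet were fitted together (15 libraries, 20031 genes without and 19679 with selenium); comparisons between diets used all 30 libraries (21383 genes). Each group had a coefficient, and pooled comparisons average the groups equally. Calls use an unadjusted p under 0.05 with Benjamini-Hochberg adjustment over all genes beside it. Alternatives were edgeR 4.0.16 and DESeq2 1.42.0 on recovered reads, other pseudocounts, filters, normalizations, covariates and variance models, and each mouse left out in turn. The tests were first tested on simulated data for HD against Ctr, at an adjusted p under 0.05. There limma recovered 35 of 100 genes changed by 0.5 on the log2 scale and 94 of 100 changed by 1, with 5 false calls. Changes smaller than 0.5 were not simulated, and every simulated gene had the same spread between mice beyond counting error. All 9 members are named. From the further lists, genes with an unadjusted p under 0.05 in HD against Ctr, selenium pooled over doses or the high dose pooled over diets are named, at most 4 per list and comparison. The members, lists and comparisons were chosen with earlier results of these data known. Sepw1 was followed into other comparisons after its values were seen. Mice were numbered within groups in accession order. The labels tie each library to its own RNA sample but give no animal identity, so p-values measure the spread between these samples. Markers of neurons of the hippocampus were detected in all groups, while liver markers summed to at most 65.7. The genes most similar to Secisbp2 are not reported here.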

Additional observations from a re-analysis of the deposited data

Results flagged for a closer look

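In groups of 5 mice, a mouse was singled out when its gap to the nearest other mouse, divided by the range of the group, was above 0.71. This happened in 3 of the 54 groups of values (9 genes in 6 groups), where chance gives about 2.7. Lrp8 in HD replicate 2 was highest at 1250 normalized counts, with a ratio of 0.847. Secisbp2 in HD replicate 1 was lowest at 74.0, with a ratio of 0.735. Sepp1 in Se_Ctr replicate 1 was highest at 2060, with a ratio of 0.719. HD replicate 2 was also the mouse with the highest Gfap. Without it, Lrp8 in HD against Ctr had a log2 fold change of 0.086, and the part that reactive astrocytes play in its Lrp8 level was not tested.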

How the results depend on the processing

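The labels give no replicate numbers, so the mice were not paired in the reported fits. Each of 5 runs of 6 neighbouring library numbers holds 1 library of every group, and a fit with this run as a block changed no call of a member. With it, and in most other settings, Gpx4 was no longer called at the high dose pooled over diets. Eefsec for selenium pooled over doses was called in every alternative run, and its adjusted p was never under 0.05. No member reached an adjusted p under 0.05 in any alternative (lowest 0.361), and no called member changed direction. The number of members called in the high dose pooled over diets was 0 with limma without the trend and 0 with an ordinary per-gene model, where the p of Sepp1 was 0.0662 and 0.0577. In HD against Ctr it was 1 (Lrp8) with all 30 libraries in the fit. With the choroid plexus score as a covariate, chosen after seeing the data, it was 1 in Se_HD against Se_Ctr and 1 in the F test over the 6 groups. The cause of these changes was not tested.

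With each mouse left out in turn, the number called ran from 0 to 2 in the high dose pooled over diets. It was 0 without Ctr replicate 2, 4 or 5, HD replicate 3, 4 or 5, Se_Ctr replicate 2, 3, 4 or 5, or Se_HD replicate 1, 4 or 5, and 2 without HD replicate 1 or Se_Ctr replicate 1. It ran from 0 to 1 in HD against Ctr (1 without Ctr replicate 4, HD replicate 1 or HD replicate 5), in Se_HD against Se_Ctr (1 without Se_Ctr replicate 1, Se_HD replicate 2 or Se_HD replicate 3), in Se_LD against LD (1 without LD replicate 2 or LD replicate 4) and in Se_HD against HD (1 without Se_HD replicate 3). In the other comparisons the number stayed as reported. For Sepw1 at the high dose pooled over diets, the adjusted p was above 0.05 in the 5 settings given with the result, and without Ctr replicate 1, 3 or 5, HD replicate 2 or 5, Se_Ctr replicate 1, 2, 3 or 5, or any 1 Se_HD mouse. In HD against Ctr its adjusted p was below 0.05 in DESeq2 (0.0271), with all 30 libraries (0.00870) and without HD replicate 1 (0.0319). Over all genes, adjusted calls in HD against Ctr ranged from 0 (limma without the trend, or an ordinary per-gene model) to 200 (all 30 libraries in the fit), with 26 as reported. Depth limits Eefsec, Pstk, Scly and Sephs2 most, with mean counting errors of 9.55% to 12.0% per mouse.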
